A study of Mus musculus with 98 samples.

Results

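The 9 genes described here encode transcription factors that mark parts of the hypothalamus and its neighbours: Tbx3, Nr5a1, Nkx2-1, Isl1, Otp, Six3, Six6, Rorb and Zfhx3. They were taken by gene symbol from a table of raw read counts with 20415 mouse gene rows, and each of the 9 had 1 row. Their levels were read in the libraries labelled suprachiasmatic nucleus (SCN, the central circadian pacemaker above the optic chiasm) and arcuate nucleus (ARC, a feeding and endocrine centre beside the median eminence), to see which tissue each dissection holds. The series has 98 RNA sequencing samples of liver, muscle, ARC and SCN, and asks what the clock of hepatocytes contributes to daily timing. All mice were 10-week-old males of the FRGN strain, which lacks Fah, Rag2 and Il2rg and was made by a cross with non-obese diabetic mice. Livers had been refilled by splenic injection of human hepatocytes (Hu arm) or murine hepatocytes (Mu arm, the control). Both arms received cycles of nitisinone (NTBC), which protects liver cells without Fah, and cycles of the antibiotics SMX/TMP. The Hu mice used had more than 70% human hepatocytes. Only the liver is repopulated in this model, so the hypothalamus consists of host mouse cells in both arms, and a mouse without Rag2 and Il2rg has no mature lymphocytes. Each region had 22 libraries, 10 Hu and 12 Mu, sampled across the day at zeitgeber time (ZT, counted in hours from lights on) 2, 6, 10, 14, 18 and 22. There were 2 libraries per arm and time, except for 1 Hu library at ZT 6 and 1 at ZT 22.

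Each hypothalamic nucleus is built by neurons that express their own combination of such factors, and many of the combinations persist in the adult. Nr5a1 (steroidogenic factor 1) is the defining factor of the ventromedial nucleus, which lies next to the ARC. Tbx3, a T-box repressor, and Isl1, a LIM homeodomain factor, are needed by arcuate neurons, among them those that make Pomc. Otp is a homeodomain factor of neuroendocrine neurons in the paraventricular nucleus and of arcuate Agrp neurons. Six3 and Six6 are homeodomain factors of the anterior forebrain and eye, and Six6 is required for the SCN to form. Nkx2-1 specifies the ventral forebrain, including much of the hypothalamus. Rorb is an orphan nuclear receptor found in thalamus, cortex, retina and SCN, and Zfhx3 is a large zinc finger homeodomain factor that SCN neurons keep in adult life.

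In GRCm38, the mouse build named in the submitters' processing notes, the GENCODE M21 annotation places the genes as follows. Tbx3 lies at chr5:119670669-119684724 on the plus strand and Nr5a1 at chr2:38692656-38714542 on the minus strand. Nkx2-1 lies at chr12:56531958-56536908, minus strand, and Six6 at chr12:72939892-72944899, plus strand. Isl1 occupies chr13:116298281-116309689, minus strand, and Otp chr13:94875602-94885130, plus strand. Six3 is at chr17:85613608-85629302, plus strand, Rorb at chr19:18930605-19111196, minus strand, and Zfhx3 at chr8:107942644-108961630, plus strand. The table has 1 count per gene and library, so no value refers to a single exon or transcript. The antisense gene 4930447C04Rik (chr12:72881109-72940774) overlaps the start of Six6 and has its own row. Antisense genes Six3os1 and Tbx3os1 overlap Six3 and Tbx3 and have no row in this table. The library kit keeps strand, but the strand setting of the counting is not given in the sources used here, so reads of such partners may not be fully separated.

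Promoter sequences (250 bases before to 50 after the start, RefSeq, GRCm38.p6) were found for 7 of the 9 genes, and not for Tbx3 and Nr5a1. The 3 shown were picked because Otp, Six3 and Six6 varied together among ARC libraries, while Otp and Six6 but not Six3 were lower in SCN. Isl1, which varied with them, is not shown. Capitals mark the CCAAT box (letters CCAAT, or ATTGG on the other strand). The Otp promoter lies at chr13:94875386-94875685, that of Six3 at chr17:85620584-85620883 and that of Six6 at chr12:72939632-72939931, all on the plus strand.
Otp: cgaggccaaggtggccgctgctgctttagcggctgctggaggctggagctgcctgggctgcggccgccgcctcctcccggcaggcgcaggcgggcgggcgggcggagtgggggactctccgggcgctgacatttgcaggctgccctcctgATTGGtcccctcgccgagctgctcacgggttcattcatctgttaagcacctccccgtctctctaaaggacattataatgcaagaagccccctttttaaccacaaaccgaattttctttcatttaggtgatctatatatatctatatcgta
Six3: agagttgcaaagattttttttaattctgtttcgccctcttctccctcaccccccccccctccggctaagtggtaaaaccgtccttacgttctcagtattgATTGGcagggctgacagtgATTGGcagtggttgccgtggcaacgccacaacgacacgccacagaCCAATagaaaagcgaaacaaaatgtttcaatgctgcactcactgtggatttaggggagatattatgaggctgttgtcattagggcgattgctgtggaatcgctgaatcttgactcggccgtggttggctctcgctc
Six6: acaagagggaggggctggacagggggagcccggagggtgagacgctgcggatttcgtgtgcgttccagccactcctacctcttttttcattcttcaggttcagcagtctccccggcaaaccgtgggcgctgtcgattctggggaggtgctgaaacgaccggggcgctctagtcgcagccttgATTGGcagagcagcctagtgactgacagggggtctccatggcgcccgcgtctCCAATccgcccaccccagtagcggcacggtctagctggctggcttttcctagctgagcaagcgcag
Six3 holds 3 such boxes, Six6 2 and Otp 1. Isl1 has 2 and 1 of the 2 Rorb promoters has 1, while Nkx2-1 and Zfhx3 have none in this window. Of 32851 mouse promoters of the same length, 37.4% hold the box, so it is a common letter string and the matches are a description only. The clock E-box (CACGTG, in 7.15% of promoters) and the homeodomain core (TAATTA, in 5.29%), searched on both strands, were in no member's window. The nuclear receptor core site (AGGTCA, in 16.3%) occurred in the Nkx2-1 window. Its extended form TCAAGGTCA (in 0.423%) and the TATA box (TATAAA, in 13.6%) were in none.

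ARC libraries held between 23.7 and 47.1 M (mega) counts each and SCN libraries between 25.5 and 34.9 M, and no pair of libraries was identical. Levels are given as CPM (counts scaled to a library total of 1 M), with 3 counts taken as the floor below which a value is not distinguished from 0. Scaling factors by TMM (trimmed mean of M values) lay between 0.970 and 1.02, and the median gene differed by -0.00058 on the log2 scale between regions. Libraries of 1 arm and time in SCN varied most at ZT 2. On the first principal component of SCN, with 26.5% of the variance, Mu ZT 2 replicate 2, Hu ZT 6 replicate 1 and Mu ZT 14 replicate 2 lay farthest out. The labels do not say whether libraries came from separate mice or pools, so p-values measure the spread between libraries. In bulk tissue, fewer cells of a type and less RNA per cell cannot be told apart.

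**Figure D1:**
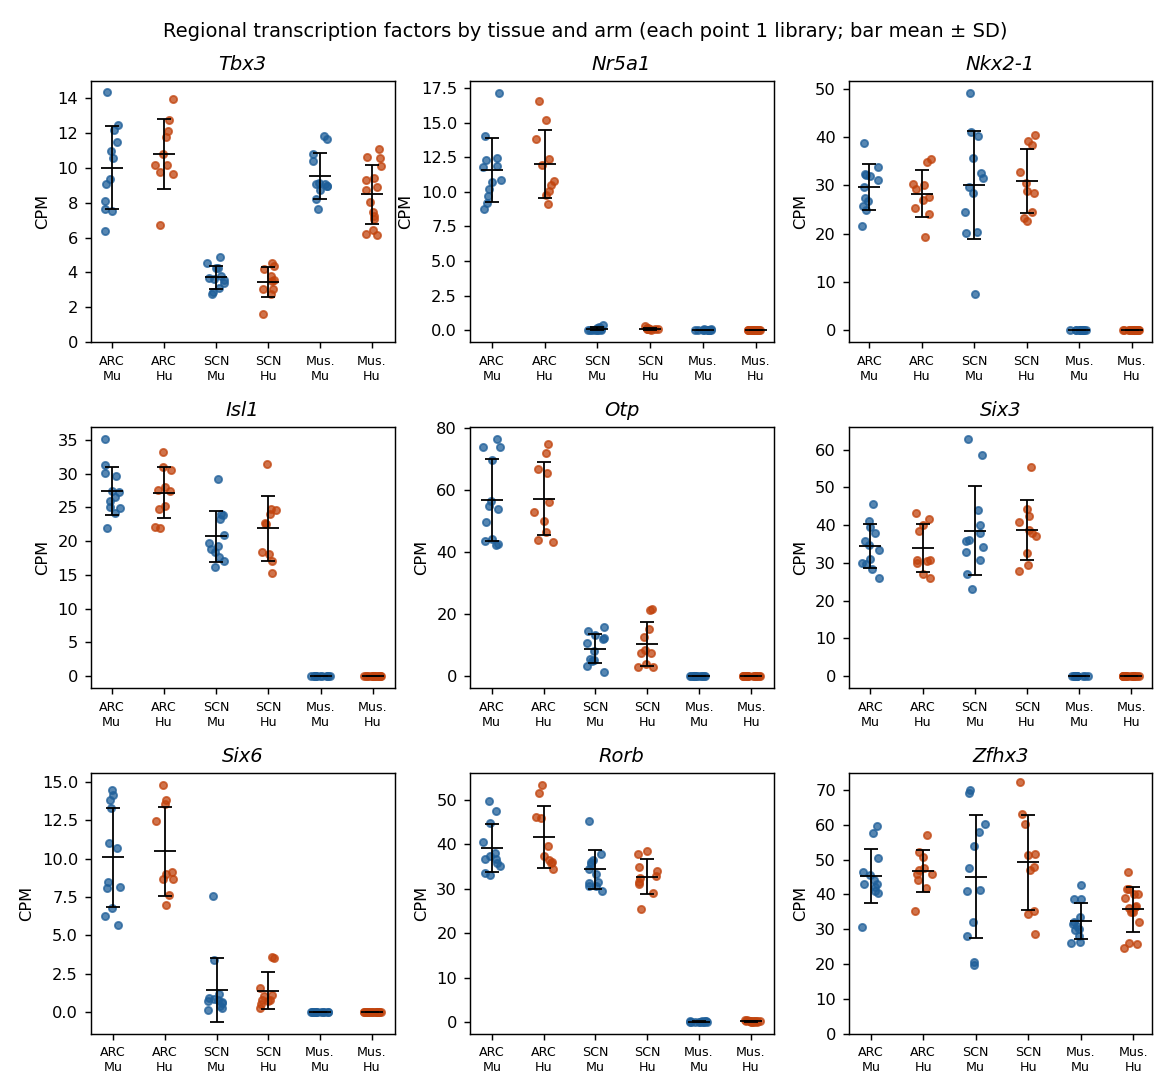
Level of each factor in CPM (vertical axes, linear, a separate scale per gene) in ARC, SCN and muscle (Mus.) libraries, Mu in blue and Hu in orange, with the mean and SD in black. Tbx3, Nr5a1 and Otp are lower in each of the 22 SCN libraries than in any ARC library, and Nkx2-1, Six3 and Zfhx3 overlap between the regions.

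Of the 9 factors, 6 were lower in SCN than in ARC libraries and none was higher. Over all 15105 genes tested, 73.4% differed between the regions at an adjusted p under 0.05 (37.0% lower and 36.4% higher in SCN), so a difference alone is the usual state of a gene here, and its size carries more. Lower levels by over 2-fold were found for 4 of the 9 (Nr5a1, Six6, Otp and Tbx3), and for 4.05% of all genes. All SCN libraries lay below all ARC libraries for 3 of the 9 (Nr5a1, Otp and Tbx3), as for 2.32% of all genes (1.88% lay the other way). All adjusted p-values below come from edgeR's quasi-likelihood test with Benjamini-Hochberg adjustment over all genes, and differences are log2 SCN minus ARC ± SE, averaged over the arms.

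The ventromedial factor Nr5a1 separated the dissections most. In ARC it ranged from 8.78 to 17.2 CPM in Mu libraries (median 11.4, n = 12) and from 9.14 to 16.6 CPM in Hu libraries (median 11.4, n = 10). In SCN it ranged from 0 to 0.333 CPM in Mu libraries (median 0.0382) and from 0.0354 to 0.258 CPM in Hu libraries (median 0.0701). The SCN values rest on at most 9 counts, and 16 of 22 libraries had 3 counts or fewer, 2 of them 0, so most are not distinguished from 0. The ratio of the means over both arms was 126, with 11.8 CPM ± 2.34 (SD, n = 22) in ARC and 0.0934 CPM ± 0.0870 in SCN. The fitted difference was -6.95 ± 0.16 (adjusted p = 2.085e-27), and 5 of the 15105 genes had a lower one. Every ARC library thus held Nr5a1 transcripts, whose known source in the hypothalamus is the ventromedial nucleus. Of the 21 SCN libraries with an ARC library of the same arm, time and number, none held more than 2.39% of that library's level.

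Tbx3, the arcuate T-box factor, was measured at 6.37 to 14.4 CPM in the 22 ARC libraries (median 10.4) and at 1.63 to 4.86 CPM in the 22 SCN libraries (median 3.61). No SCN library reached the lowest ARC library. The mean fell from 10.4 CPM ± 2.21 (SD) in ARC to 3.60 CPM ± 0.757 in SCN, a difference of -1.53 ± 0.10 (adjusted p = 1.734e-15). Tbx3 is not limited to neurons of this region: muscle libraries had 8.96 CPM ± 1.60 (n = 27), more than SCN libraries.

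Otp, the neuroendocrine homeodomain factor, was the member with the highest CPM in ARC. It ranged from 42.4 to 76.6 CPM there (mean 57.0 ± 12.3 SD) and from 1.40 to 21.6 CPM in SCN (mean 9.56 ± 5.81). The ranges did not overlap, and the difference was -2.68 ± 0.21 (adjusted p = 3.475e-13). Otp was much more uneven among SCN than among ARC libraries: its coefficient of variation was 60.7% in SCN and 21.6% in ARC. The highest SCN values were 21.6 CPM in Hu ZT 2 replicate 2 and 21.3 CPM in Hu ZT 14 replicate 1, and the lowest was 1.40 CPM in Mu ZT 14 replicate 2.

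Six6, the factor that the SCN needs in order to form, was lower in the libraries labelled SCN. In ARC it ranged from 5.67 to 14.5 CPM in Mu libraries (median 9.58) and from 6.98 to 14.8 CPM in Hu libraries (median 9.07). In SCN it ranged from 0.143 to 7.55 CPM in Mu libraries (median 0.756) and from 0.250 to 3.60 CPM in Hu libraries (median 0.900). Of the 22 SCN libraries, 18 were under 2 CPM and 4 over 3 CPM. Those 4 were Mu ZT 18 replicate 2 with 7.55 CPM, Hu ZT 14 replicate 1 with 3.60 CPM, Hu ZT 2 replicate 2 with 3.50 CPM and Mu ZT 2 replicate 1 with 3.39 CPM. Only Mu ZT 18 replicate 2 reached the ARC range, and the other 21 lay below every ARC library. Six6 differed by -3.06 ± 0.29 (adjusted p = 2.869e-11), and by -3.28 without Mu ZT 18 replicate 2. Its antisense neighbour 4930447C04Rik was also lower in SCN, with 3.36 CPM ± 0.886 (SD) against 7.22 CPM ± 1.44 in ARC, a difference of -1.11 ± 0.11 (adjusted p = 3.764e-11). Whether reads of the antisense gene add to the Six6 row was not tested.

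Its paralog Six3 did not follow. Six3 ranged from 25.9 to 45.5 CPM in ARC (median 32.2) and from 22.97 to 62.9 CPM in SCN (median 37.6), and the ranges overlapped widely. The difference was 0.17 ± 0.09 (adjusted p = 0.096). It passed the threshold as higher in SCN when 1 of 3 libraries was left out: 0.21 (adjusted p = 0.0329) without ARC Hu ZT 10 replicate 1, 0.20 (0.0417) without ARC Hu ZT 14 replicate 2, and 0.19 (0.0437) without SCN Mu ZT 2 replicate 2. Without the 3 SCN libraries farthest out it was 0.24 (adjusted p = 0.0151). Six3 was highest in SCN Mu ZT 2 replicate 1 (62.9 CPM) and Mu ZT 18 replicate 2 (58.4 CPM), which also belong to the 4 libraries with the most Six6.

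Isl1 and Rorb were lower in SCN by small amounts. Isl1, the LIM factor of arcuate neurons, ranged from 21.9 to 35.2 CPM in ARC (median 27.4) and from 15.3 to 31.4 CPM in SCN (median 20.3), and 12 of 22 SCN libraries lay below the lowest ARC library. Its difference was -0.37 ± 0.06 (adjusted p = 1.773e-06). Rorb ranged from 33.0 to 53.4 CPM in ARC (median 37.4) and from 25.4 to 45.2 CPM in SCN (median 33.0), with a difference of -0.27 ± 0.06 (adjusted p = 9.196e-05). For Rorb, 11 of 22 SCN libraries lay below the ARC range and none above it.

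Nkx2-1 and Zfhx3 did not differ detectably between the regions, but varied more among SCN libraries. Nkx2-1, the ventral forebrain factor, averaged 29.1 CPM ± 4.71 (SD) in ARC and 30.4 CPM ± 9.19 in SCN, a difference of 0.05 ± 0.11 (adjusted p = 0.704). In SCN it ran from 7.43 CPM in Mu ZT 2 replicate 2, below every ARC library, to 49.2 CPM in Mu ZT 18 replicate 2. Zfhx3 averaged 46.0 CPM ± 6.88 in ARC and 47.0 CPM ± 15.7 in SCN, a difference of -0.0063 ± 0.11 (adjusted p = 0.962). Its SCN values reached from 19.8 CPM in Mu ZT 14 replicate 2 to 72.4 CPM in the Hu library at ZT 22, with 4 libraries below and 6 above the whole ARC range. The coefficient of variation of Zfhx3 was 33.5% in SCN and 14.9% in ARC, and that of Nkx2-1 was 30.2% and 16.2%. The SE of 0.11 limits what both comparisons can show, and equal levels are not shown by them.

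Levels of different genes can be compared only per length, here as CPM per kilobase of exons. On that scale the ARC order was Otp (19.8 ± 4.28 SD), Nkx2-1 (10.2 ± 1.66), Isl1 (6.90 ± 0.904), Six3 (6.28 ± 1.08), Rorb (3.63 ± 0.557), Nr5a1 (2.78 ± 0.552), Six6 (2.56 ± 0.755), Zfhx3 (2.19 ± 0.328) and Tbx3 (1.56 ± 0.333). Only Otp was apart from its neighbour in this order, since its lowest library (14.7) exceeded the highest of Nkx2-1 (13.7). In SCN the order was Nkx2-1 (10.7 ± 3.23), Six3 (7.09 ± 1.83), Isl1 (5.36 ± 1.06), Otp (3.32 ± 2.02), Rorb (3.03 ± 0.374), Zfhx3 (2.24 ± 0.750), Tbx3 (0.544 ± 0.114), Six6 (0.353 ± 0.426) and Nr5a1 (0.0220 ± 0.0205). There the single gap between neighbours was between Zfhx3, with a lowest library of 0.942, and Tbx3, with a highest of 0.734. Otp thus had the highest level in ARC and the fourth in SCN.

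Muscle served as a tissue without hypothalamic cells. Nkx2-1, Six3 and Six6 had 0 counts in 27 of 27 muscle libraries, which allows up to 0.0326 to 0.0696 CPM per library. Isl1 and Otp reached at most 1 count, and Nr5a1 at most 3. Rorb averaged 0.149 CPM ± 0.0981 (SD). Zfhx3 was at 34.2 CPM ± 6.01, close to its brain level, so Zfhx3 and Tbx3 do not mark nervous tissue by their presence.

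**Figure D2:**
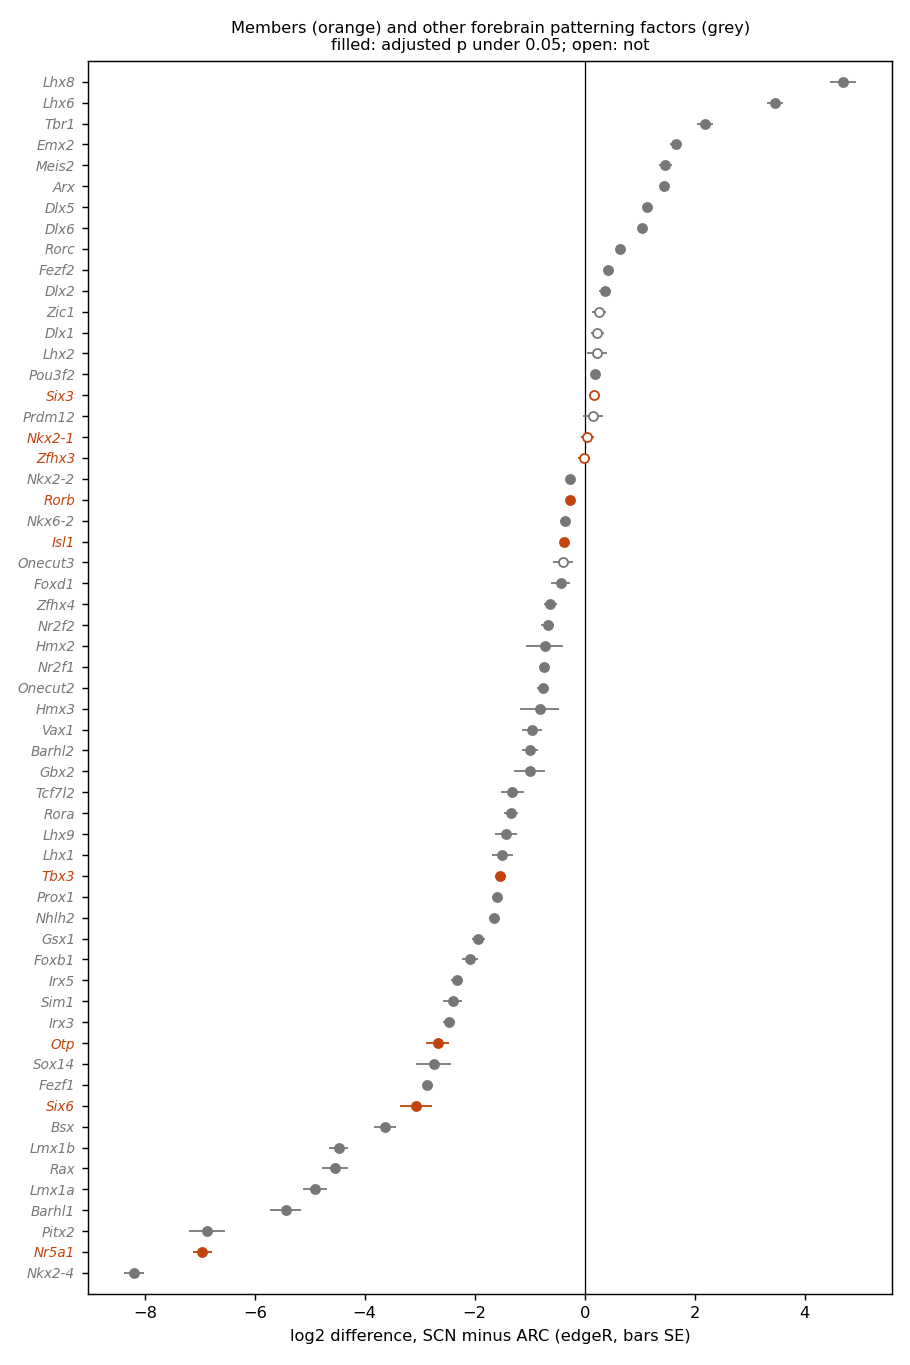
Log2 difference between SCN and ARC (horizontal axis, bars SE) for the 9 members in orange and other patterning factors in grey, sorted by size, with open points for genes that did not pass the test. Nkx2-4 (-8.19) and Nr5a1 (-6.95) are at the low end, Lhx8 (4.70) and Lhx6 (3.47) at the high end, and Zfhx3, Nkx2-1 and Six3 lie near 0 with open points.

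The members' differences can be set beside 50 other patterning factors of hypothalamus and forebrain. Of these, 32 were lower and 13 higher in SCN and 5 did not pass (all genes: 37.0% lower, 36.4% higher). Their median was -0.75, against -0.37 for the members and -0.00058 for all genes. Like Nr5a1, the hypothalamic factor Nkx2-4 (-8.19 ± 0.18) and the tanycyte factor Rax (-4.55 ± 0.24) were far lower in SCN. Both were near the floor there, so the size of their difference is uncertain. Nkx2-4 had 3 counts or fewer in all 22 SCN libraries (0 in 17) and Rax in 18. Lhx1, which SCN neurons need, was lower as Six6 was (-1.50 ± 0.19). Factors of the telencephalon and its ventral eminences were higher: Lhx8 (4.70 ± 0.23) and Lhx6 (3.47 ± 0.15).

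Markers of the labelled nuclei were read beside the members. Of 10 arcuate genes tested, 9 were lower in SCN, as were 8 of 9 ventromedial and 6 of 8 paraventricular genes. Of 11 genes of SCN peptides and signalling, 8 were lower in SCN, 1 was higher (Prok2, 0.75 ± 0.24) and 2 did not pass (Vip, 0.16 ± 0.38, and Nms, 0.42 ± 0.25). None of these SCN genes was at 0 in any library of either region, and their summed level was 151 to 596 CPM in SCN and 513 to 999.5 CPM in ARC libraries. Of 8 telencephalon genes, 5 were higher in SCN, and their list summed to 115 to 333 CPM there against 33.6 to 54.3 CPM in ARC. All 5 thalamus genes were lower in SCN (65.5 to 183 CPM summed against 49.96 to 564 CPM in ARC). All 7 neuron genes and all 7 genes of vessels and meninges were higher in SCN. Tanycyte genes were lower in 7 of 9, and pituitary genes in 3 of the 3 tested out of 9 listed. Preoptic genes split into 3 higher and 3 lower of 8, and choroid plexus genes into 1 higher and 2 lower of 5. Oligodendrocyte (4 of 8) and microglia genes (4 of 5) were higher where they passed, and astrocyte genes went both ways (2 and 2 of 6). Of all genes tested, 37.0% were lower and 36.4% higher in SCN, so counts near these shares do not set a list apart. What part such cells have in the members' differences was not tested.

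No member differed between the Hu and Mu arms beyond the spread between libraries. None of the 9 differed between Hu and Mu in ARC, where 0.00663% of all genes did, and none of the 8 that could be tested in SCN, where 0.0% did. Nr5a1 did not pass the filter on low counts in SCN alone. In ARC the Hu minus Mu log2 difference lay between -0.07 ± 0.10 for Nkx2-1 and 0.12 ± 0.12 for Tbx3 (adjusted p = 0.999 for all). In SCN it lay between -0.11 ± 0.13 for Tbx3 and 0.25 ± 0.37 for Otp (adjusted p = 0.9999 for all). By an unadjusted p under 0.05, 640 genes in ARC and 325 in SCN differed, and none of the members. No difference between the arms was detected in the regional difference either: its Hu less Mu value ran from -0.22 ± 0.19 for Tbx3 to 0.18 ± 0.41 for Otp (adjusted p = 1 for all 9, 0.0% of all genes called, 206 at an unadjusted p under 0.05). For Six6 the regional difference was -3.01 ± 0.43 in Hu and -3.12 ± 0.40 in Mu. For Otp it was -2.59 ± 0.31 in Hu and -2.77 ± 0.29 in Mu.

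**Figure D3:**
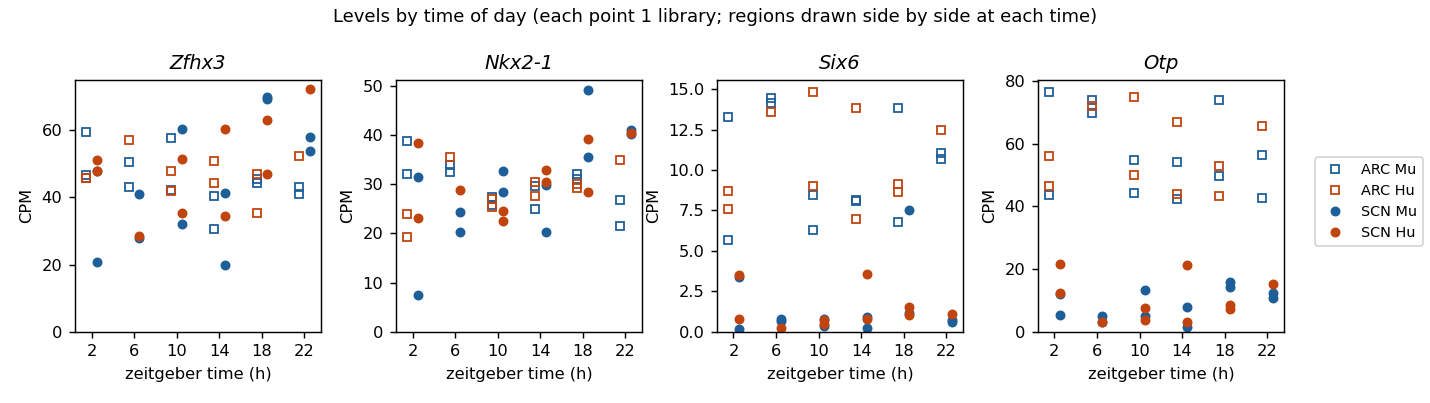
Levels in CPM (vertical axes) of Zfhx3, Nkx2-1, Six6 and Otp by zeitgeber time in hours (horizontal axes), 1 point per library, open squares for ARC, filled circles for SCN, Mu blue and Hu orange. SCN values of Zfhx3 and Nkx2-1 are highest at ZT 18 and 22, and libraries of 1 time differ widely, as with Six6 at ZT 18.

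None of the members had a daily rhythm past the threshold, against 4.53% of all genes in ARC and 1.52% in SCN. In SCN, Zfhx3 had a fitted log2 amplitude of 0.38 with a peak at ZT 19.5 (adjusted p = 0.211). Nkx2-1 had an amplitude of 0.35 with a peak at ZT 19.2 (adjusted p = 0.237). Without Mu ZT 2 replicate 2, the library with the lowest Nkx2-1, its rhythm passed (amplitude 0.34, adjusted p = 0.0462). Six6 had the largest fitted amplitude in SCN, 0.97 (adjusted p = 0.332), and this fell to 0.49 without Mu ZT 18 replicate 2. In ARC the smallest p was that of Zfhx3 (amplitude 0.14, peak ZT 4.24, adjusted p = 0.310), and Tbx3 had the largest amplitude, 0.19 (adjusted p = 0.326). Each time point had 3 or 4 libraries per region, which limits what rhythm can be seen.

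Levels of members were then compared among libraries of 1 region. Pearson's r of log2 CPM was computed for all 36 pairs in each region over 22 libraries, with 2-sided permutation tests adjusted over the 72 pairs, for which 1e-05 is the smallest p that the permutations can give. In ARC, 20 pairs passed, 15 of them positive and 5 negative, and in SCN 11 passed, all positive. The weakest r that passed was -0.5 in ARC and 0.488 in SCN. Of all pairs among the 15105 genes, 14.5% in ARC (7.54% positive, 6.99% negative) and 19.2% in SCN (9.89% positive, 9.35% negative) had an r at least that far from 0, so correlated pairs are common among these libraries. With Spearman's rho, 28 of 72 passed, and with arm means removed 33.

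In ARC, Otp, Six3, Six6 and Isl1 varied as a group. Otp and Six3 had r = 0.861 and rho = 0.75 (permutation p = 1e-05, adjusted p = 0.00018), Isl1 and Six3 r = 0.857 and rho = 0.859 (p = 1e-05, adjusted 0.00018), and Otp and Six6 r = 0.848 and rho = 0.761 (p = 1e-05, adjusted 0.00018). Leaving out the 2 libraries farthest from the median of the first gene gave r of 0.833, 0.858 and 0.823. Nr5a1 went with this group, with r = 0.74 and rho = 0.73 against Otp (permutation p = 0.00011, adjusted p = 0.00088, 0.668 without 2 libraries). Rorb went the other way: its r was -0.626 with Otp (rho = -0.598, permutation p = 0.00216, adjusted p = 0.00891) and -0.619 with Six3 (rho = -0.562, p = 0.00235, adjusted p = 0.00891). Without the 2 farthest libraries these were -0.616 and -0.615. The negative r of Rorb with Nkx2-1 (-0.5) rested on 2 libraries, without which it was -0.224.

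**Figure D4:**
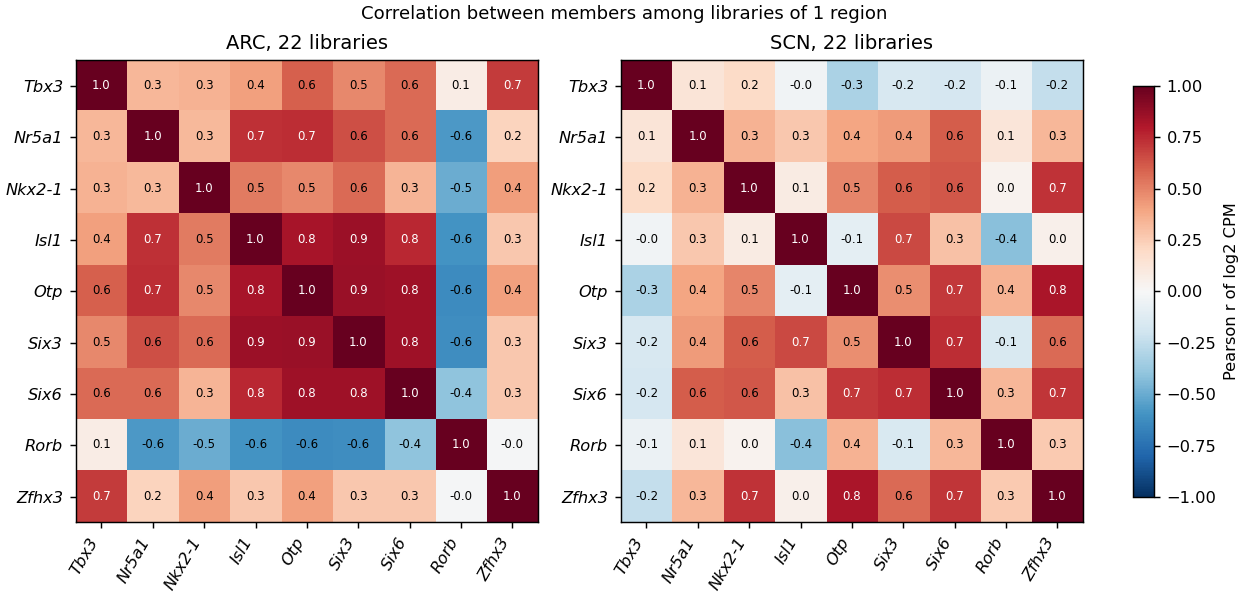
Pearson's r of log2 CPM between members (both axes) among the 22 ARC libraries (left) and the 22 SCN libraries (right), red positive and blue negative. In ARC the block of Isl1, Otp, Six3 and Six6 is red and the Rorb row is mostly blue, and in SCN Zfhx3 is red with Otp, Nkx2-1, Six3 and Six6.

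In SCN, Zfhx3 and Otp had the highest r, 0.813, with rho = 0.799 (permutation p = 2e-05, adjusted p = 0.000288, 0.747 without the 2 farthest libraries). Six3 and Six6 followed with r = 0.739 and rho = 0.65 (permutation p = 0.0002, adjusted p = 0.0012, 0.663 without 2). Zfhx3 and Nkx2-1 had r = 0.726 and rho = 0.689 (permutation p = 9e-05, adjusted p = 0.00081, 0.644 without 2), and Zfhx3 and Six6 r = 0.713 and rho = 0.714 (permutation p = 0.00025, adjusted p = 0.00129, 0.689 without 2). Otp and Six6 had r = 0.706 and rho = 0.728 (permutation p = 0.00022, adjusted p = 0.00122, 0.7 without 2). Because 4 libraries stood above the rest in Six6, its pairs were also computed over the 18 libraries under 2 CPM (6 relations, with p adjusted over them). That choice uses Six6 itself and narrows its range, which can lower r. There r was 0.843 with Zfhx3 (rho = 0.763, permutation p = 3e-05, adjusted p = 0.00018) and 0.582 with Six3 (rho = 0.445, permutation p = 0.0115, adjusted p = 0.0173). Six6 with Nkx2-1 (0.64) and with Otp (0.59) also passed (adjusted permutation p = 0.0142 and 0.0173). Of the 11 SCN pairs that passed, 1 was Nr5a1 with Six6 (r = 0.602, 0.336 without 2 libraries), and since most SCN values of Nr5a1 are at or under the floor of 3 counts, nothing is read from it. Whether a pair's r differs between ARC and SCN was not tested. Libraries of 1 region may differ in the tissue they hold and in the level per cell, which cannot be told apart here. They also differ in time of day, which was not removed from the correlations.

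**Figure D5:**
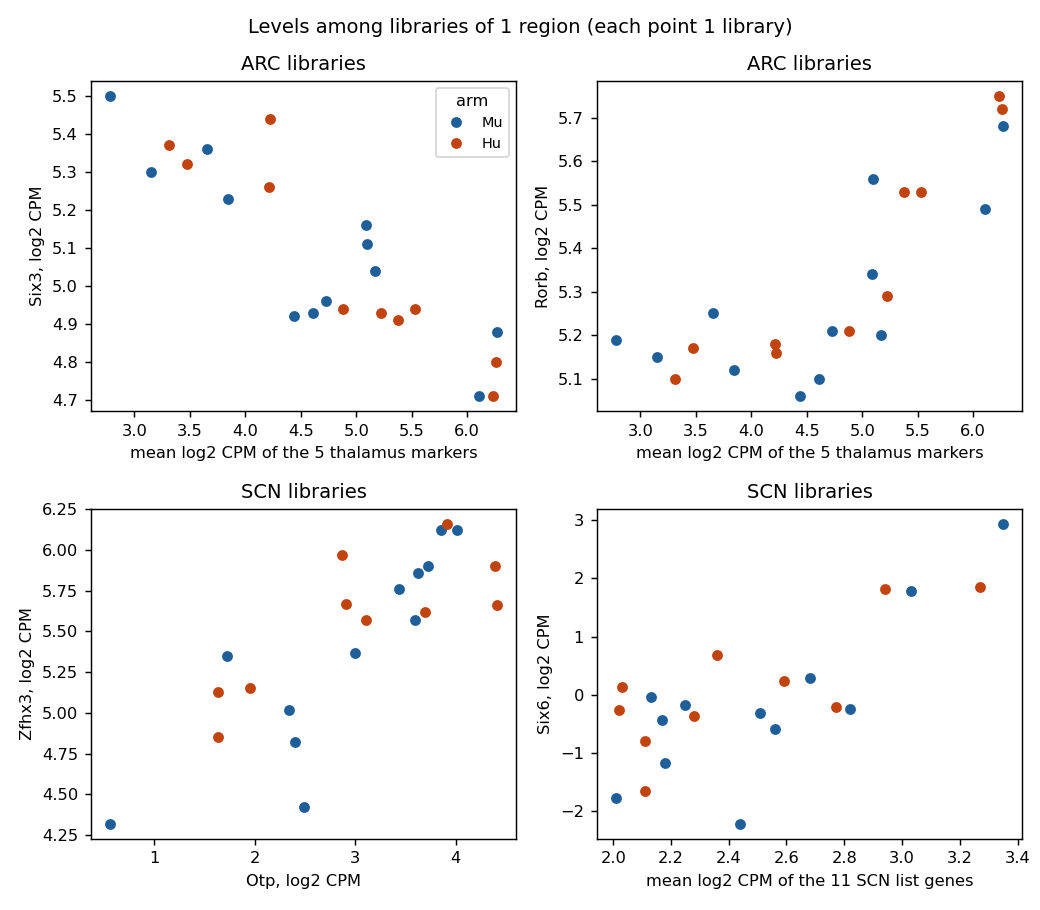
Each point is 1 library, Mu in blue and Hu in orange. The upper panels plot Six3 and Rorb in ARC against the mean of 5 thalamus markers, the lower panels plot Zfhx3 against Otp and Six6 against the mean of 11 SCN list genes in SCN, all in log2 CPM. Six3 falls (r = -0.885) and Rorb climbs (r = 0.806) with the thalamus markers.

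The same libraries were then ordered by markers of neighbouring tissue, as the mean log2 CPM of each of 8 lists, which made 144 relations with the 9 members in 2 regions. In ARC, the 5 thalamus markers ran against Six3 (r = -0.885, rho = -0.855, permutation p = 1e-05, adjusted p = 0.000144, -0.888 without 2 libraries). They also ran against Otp (r = -0.853, rho = -0.766, permutation p = 2e-05, adjusted p = 0.000222, -0.829 without 2) and Isl1 (r = -0.832, rho = -0.787, p = 1e-05, adjusted p = 0.000144, -0.79 without 2). Rorb, itself a thalamic gene, rose with them in ARC (r = 0.806, rho = 0.805, permutation p = 2e-05, adjusted p = 0.000222, 0.742 without 2). Among SCN libraries Rorb ran against the same markers (r = -0.681, rho = -0.598, adjusted permutation p = 0.00245, -0.533 without 2). The summed thalamus markers spanned 49.96 to 564 CPM among the ARC libraries. ARC libraries with more RNA of thalamus markers thus had less Six3, Otp and Isl1 and more Rorb, and both arms were spread along this range. Of the 15099 other genes, 0.192% had an r with these markers at least as far in the same direction as Six3. This share was 0.417% for Otp, 0.629% for Isl1 and 3.24% for Rorb. Nr5a1, Nkx2-1 and Six6 also passed with negative r (-0.674, -0.659 and -0.713, adjusted permutation p = 0.00319, 0.00412 and 0.00165), while Tbx3 (-0.287) and Zfhx3 (-0.258) did not pass. Their shares of other genes were 4.29%, 4.78% and 2.98%. The 8 oligodendrocyte genes also ran against Otp (r = -0.766), Nr5a1 (-0.714), Six3 (-0.678), Isl1 (-0.653), Six6 (-0.626) and Nkx2-1 (-0.546). Adjusted permutation p was 0.000222, 0.000982, 0.00243, 0.00402, 0.00738 and 0.0266 in that order, and Tbx3, Rorb and Zfhx3 did not pass. By rho, Nkx2-1 did not pass (-0.46, adjusted permutation p = 0.0778), while Rorb did (0.571, 0.0204). The share of other genes with an r at least as far in the same direction ran from 0.0331% for Otp to 3.6% for Nkx2-1. Otp (r = 0.805, rho = 0.823), Six6 (0.761, 0.792) and Six3 (0.748, 0.799) went up with the 10 arcuate genes (permutation p = 1e-05, 4e-05 and 8e-05, adjusted p = 0.000144, 0.00032 and 0.000576), and without 2 libraries r was 0.783, 0.725 and 0.697. Their r with the 8 paraventricular and supraoptic genes was 0.819 for Otp, 0.739 for Six6 and 0.84 for Six3 (rho = 0.752, 0.783 and 0.822, permutation p = 1e-05, 0.00013 and 1e-05, adjusted p = 0.000144, 0.000891 and 0.000144, and 0.796, 0.73 and 0.806 without 2 libraries). Isl1 rose with both lists too, with r = 0.7 for the arcuate (rho = 0.758, adjusted permutation p = 0.00165) and 0.77 for the paraventricular list (rho = 0.738, adjusted permutation p = 0.00032). Tbx3 (r = 0.606, adjusted permutation p = 0.01) and Nr5a1 (0.568, 0.0197) also rose with the arcuate list, Nr5a1 at 0.337 without 2 libraries. With the paraventricular list Nr5a1 rose (r = 0.606, adjusted permutation p = 0.00931) and Rorb fell (r = -0.744, adjusted permutation p = 0.00032). For Otp, Six6, Six3 and Isl1, 0.0331% to 0.278% of other genes had an r at least as high with the arcuate list. With the paraventricular list this share was 0.371% to 1.64%. For Tbx3 and Nr5a1 the share was 1.27% and 1.92% with the arcuate list. With the paraventricular list it was 5.14% for Nr5a1 and, in the negative direction, 3.86% for Rorb.

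In SCN, Zfhx3 followed the 8 preoptic genes (r = 0.936, rho = 0.883, permutation p = 1e-05, adjusted p = 0.000144, 0.91 without 2 libraries) and the 8 paraventricular and supraoptic genes (r = 0.912, rho = 0.864, p = 1e-05, adjusted p = 0.000144, 0.868 without 2). Otp rose with several lists, among them the 10 arcuate genes (r = 0.647, rho = 0.598, adjusted permutation p = 0.00403, 0.463 without 2). Of other genes, 2.42% had an r with the arcuate list at least as high as that of Otp. Its r was 0.897 with the paraventricular genes (rho = 0.899, permutation p = 1e-05, adjusted p = 0.000144, 0.859 without 2) and 0.856 with the preoptic genes (rho = 0.858, p = 1e-05, adjusted p = 0.000144, 0.809 without 2). It was 0.824 with the 9 ventromedial genes (rho = 0.88, permutation p = 1e-05, adjusted p = 0.000144, 0.828 without 2) and 0.81 with the 11 SCN list genes (rho = 0.867, p = 4e-05, adjusted p = 0.00032, 0.805 without 2). Six6 went with the SCN list (r = 0.76, rho = 0.637, permutation p = 3e-05, adjusted p = 0.000309), and r was 0.595 without 2 libraries. Over the 18 libraries with Six6 under 2 CPM it was 0.286 (rho = 0.34, permutation p = 0.253, adjusted p = 0.253), a value that the narrower range of Six6 can itself lower. Six6 also rose with the paraventricular (r = 0.703, rho = 0.731, adjusted permutation p = 0.0012) and preoptic genes (r = 0.663, rho = 0.643, adjusted permutation p = 0.00301). Of other genes, 3.88% and 5.87% had an r at least as high with these lists, so such values are not rare. Telencephalon markers ran against Zfhx3 (r = -0.704, rho = -0.649, permutation p = 0.00023, adjusted p = 0.00132, -0.557 without 2) and Nkx2-1 (r = -0.696, rho = -0.563, p = 0.00059, adjusted p = 0.00274, -0.488 without 2). For Otp this relation did not pass (r = -0.406, rho = -0.412, adjusted permutation p = 0.126). Of other genes, 2.46% ran against the telencephalon markers at least as far as Zfhx3, and 2.75% at least as far as Nkx2-1. Zfhx3 also rose with the ventromedial (r = 0.75, adjusted permutation p = 0.000455), arcuate (0.724, 0.001) and SCN lists (0.617, 0.00875). Nkx2-1 rose with the preoptic (r = 0.644, adjusted permutation p = 0.00216), paraventricular (0.607, 0.00416) and, not by rho, arcuate lists (0.49, 0.0482). Of other genes, 6.4% and 7.04% matched or exceeded its first 2 values. SCN libraries with more Zfhx3 and Nkx2-1 thus held less RNA of telencephalon markers and more of several hypothalamic lists, preoptic and paraventricular among them. Time of day was not removed from these correlations, and its part in them was not tested. In SCN, mean Zfhx3 was 32.5 CPM at ZT 6 and 62.3 CPM at ZT 18, and mean Nkx2-1 24.5 CPM at ZT 6 and 40.6 CPM at ZT 22.

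Across all 44 brain libraries, the genes whose levels were most like each member were as follows. Nr5a1 was most like Nkx2-4 (r = 0.987) and Hcrt (0.986), the orexin gene of the lateral hypothalamus, both lower in SCN (-8.19 and -9.11). Nkx2-4 had 3 counts or fewer in all 22 SCN libraries and Nr5a1 in 16. Six6 was most like Ddc (0.94), an enzyme of monoamine synthesis, and Otp (0.937), and Otp was most like Ddc (0.97) and Cited1 (0.965). Tbx3 was most like Vdr (0.929) and Nr5a2 (0.928), and Zfhx3 most like Efna5 (0.914) and Rtl1 (0.872). Rorb was most like Lhx9 (0.835) and Cldn12 (0.817). For Nkx2-1 these were Prkaca (0.84) and Gpld1 (0.834), for Isl1 Arhgap6 (0.795) and Rgs2 (0.786), and for Six3 Dlx2 (0.748) and Sox1 (0.729). These r values include the difference between the regions. Within 1 region, Six6 and Otp had r = 0.848 in ARC and 0.706 in SCN, against 0.937 over both.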

How the data were processed

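RNA of ARC, SCN and muscle was sequenced after a directional library preparation, per the labels' protocols. The submitters' processing notes name STAR and the builds GRCm38 and mm10 (with human builds), without roles; the counting program and its strand setting are not given in the sources used here. The authors deposited raw counts per mouse gene, which were used as whole numbers. Symbols came from a gene name table (20329 of 20415 rows matched). Of the brain columns, 2 (Hu, ZT 22) matched a group but no single labelled sample.

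Genes were kept with filterByExpr, scaled by TMM and tested with edgeR 4.0.16 in R 4.3.3 (quasi-likelihood, Benjamini-Hochberg, threshold 0.05). The regional fit held all 44 brain libraries with arm by time as a factor and SCN minus ARC in each arm. Hu minus Mu was fitted within a region with a 24 h cosine and sine per arm, and rhythm with terms common to both arms. Correlations used log2 CPM with a prior count of 2 and 100000 permutations, without a term for time of day. Fits were tested on simulated data. Alternatives were DESeq2 1.42.0, other scaling, no low-count filter, single arms, time as a factor, a replicate block and leaving out each library. Named genes are the members, genes of the marker lists, and the 2 most similar genes per member; 1 list gene is counted but not reported by name or plotted here. The members and lists were chosen with earlier results of these data known. Correlations with marker lists, the shares of all gene pairs and of other genes, the antisense gene and the fit without 3 SCN libraries were chosen after seeing the data. Total counts were 23.7 to 47.1 M (mega) in brain and 43.1 to 92.05 M in muscle libraries, and the liver table was not used here.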

Additional observations from a re-analysis of the deposited data

How the results depend on the processing

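Region by region, the 6 members lower in SCN kept that call under DESeq2, other scaling, no filter, each arm alone and without any 1 library. The number of genes differing between regions, 11088, ranged from 8964 (Hu only) to 11831 (no filter), and leaving out 1 library gave 10871 to 11178. Values near 0 changed sign: Nkx2-1 was -0.029 in Mu libraries only, and Zfhx3 was 0.0043 without the filter, 0.0605 in Hu only and 0.13 without the 3 SCN libraries farthest out, with -0.0348 to 0.0615 when leaving out 1 library. Leaving out 1 library, the arm difference of the regional value of Otp ran from -0.10 to 0.36, and Hu minus Mu in SCN from -0.17 to 0.0087 for Tbx3 and from -0.0891 to 0.47 for Otp. The cause was not tested. Hu against Mu calls were 1 in ARC (14 by DESeq2, 1 to 2 without 1 library) and 0 in SCN (1 by DESeq2, 0 to 1 without 1 library). Rhythm calls in ARC were 683, with 154 with time as a factor, 1118 by DESeq2, 48 in Mu only (fewer samples) and 429 to 814 without 1 library. In SCN they were 228, with 31, 806 and 14 in the same order and 109 to 445 without 1 library. Equal replicate numbers were not taken as pairs in the main results: the correlation of deviations between SCN and ARC was -0.192 to 0.310 (mean 0.122), over 0.1 in 6 of 10, and the labels used here do not say whether such libraries share a mouse. With the replicate block, 10885 genes differed between regions, rhythm calls were 618 in ARC and 148 in SCN, and the members' calls were as before. Depth limits Nr5a1 in SCN, at 9 counts or fewer.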
